A study of Mus musculus with 10 samples.

Results

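The NFAT family and calcineurin genes described here are Nfat5, Nfatc1, Nfatc2, Nfatc3, Ppp3ca, Ppp3cb, Ppp3cc, Ppp3r1 and Rcan1. These 9 genes were chosen by name from the 54408 genes whose transcripts were quantified, and all 9 were among the 13081 that passed the filter on low counts. RNA was sequenced from CD8 T cells sorted from B16-gp33 tumours, which are mouse melanomas that express the gp33 peptide, and the cells under study were P14 cells, whose transgenic T cell receptor recognises that peptide. The 5 NFAT5 KO libraries came from NFAT5flox/flox cells with CD4-Cre+/-, in which Cre recombinase is driven by the Cd4 promoter and so acts during thymic development. The 5 WT libraries came from NFAT5flox/flox cells with CD4-Cre-/-, so both genotypes carried the floxed alleles, and both were on the C57BL/6 strain. Before transfer the T cells of both genotypes were activated in culture for 48 hours. The cells were then given to tumour-bearing mice, and the tumours were taken 7 days later. The labels name no marker that told the transferred cells from CD8 T cells of the host, and they do not say which exons the floxed sites flank.

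Calcineurin is the phosphatase that calcium and calmodulin switch on when the T cell receptor signals. It pairs a catalytic subunit, encoded by Ppp3ca, Ppp3cb or Ppp3cc, with a calcium-binding regulatory subunit, encoded by Ppp3r1. Active calcineurin strips phosphates from NFATc1, NFATc2 and NFATc3, which then enter the nucleus, bind DNA at the core GGAAA and turn on genes of T cell activation and, without partners such as AP-1, genes of T cell exhaustion. Rcan1 binds calcineurin and can inhibit it, and in other cell types the downstream promoter of its gene is a known NFAT target. NFAT5 shares the DNA-binding domain of the family but lacks the region that docks calcineurin, and is best known for the response to osmotic stress. The comparison of NFAT5 KO with WT cells asks whether RNA of the rest of the family and of its phosphatase differed when the floxed Nfat5 alleles were exposed to Cre.

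Rcan1 and Nfatc2 each have an upstream and a downstream start, and in these libraries transcripts of 1 of the starts made up nearly all the RNA of each gene, as the values further on show. The 250 bases before each start are printed to show what lies at the start assigned nearly all the RNA and at the other one. They come from RefSeq on GRCm38.p6, all on the minus strand, at chr16:92466170-92466419 and chr16:92400079-92400328 for Rcan1 and chr2:168601658-168601907 and chr2:168590366-168590615 for Nfatc2. Capitals mark GGAAA on either strand, which reads TTTCC where it lies on the other strand.
Rcan1 upstream start: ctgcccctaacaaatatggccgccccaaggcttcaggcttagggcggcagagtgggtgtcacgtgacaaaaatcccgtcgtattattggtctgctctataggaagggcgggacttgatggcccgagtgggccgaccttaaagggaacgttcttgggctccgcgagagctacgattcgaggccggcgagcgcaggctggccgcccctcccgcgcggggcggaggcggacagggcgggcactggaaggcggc
Rcan1 downstream start: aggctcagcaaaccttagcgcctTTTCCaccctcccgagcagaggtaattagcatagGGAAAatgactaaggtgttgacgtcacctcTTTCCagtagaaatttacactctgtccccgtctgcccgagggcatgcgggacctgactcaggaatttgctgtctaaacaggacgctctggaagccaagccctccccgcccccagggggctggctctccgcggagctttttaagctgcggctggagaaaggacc
Nfatc2 upstream start: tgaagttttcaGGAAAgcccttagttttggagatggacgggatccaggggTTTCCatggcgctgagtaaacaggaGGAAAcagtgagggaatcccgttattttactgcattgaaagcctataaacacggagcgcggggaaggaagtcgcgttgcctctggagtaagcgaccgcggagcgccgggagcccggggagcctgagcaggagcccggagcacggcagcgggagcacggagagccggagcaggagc
Nfatc2 downstream start: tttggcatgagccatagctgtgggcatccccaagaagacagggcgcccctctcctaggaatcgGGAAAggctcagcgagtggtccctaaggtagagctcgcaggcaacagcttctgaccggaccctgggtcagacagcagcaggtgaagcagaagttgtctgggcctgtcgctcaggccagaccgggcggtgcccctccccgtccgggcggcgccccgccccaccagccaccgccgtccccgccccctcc
The letters GGAAA did not occur before the upstream Rcan1 start, assigned nearly all the RNA, and occurred 3 times before the downstream one. For Nfatc2 they occurred 1 time before the downstream start, assigned nearly all the RNA, and 3 times before the upstream one. Of 32851 RefSeq windows of the same length, 55.6% held them at least 1 time, 21.4% at least 2 times and 6.39% at least 3 times. RefSeq windows were read for 6 of the 9 genes. Nfat5 had 2 matches, Nfatc3 1 before its upstream and 0 before its downstream start, Ppp3cb 3 and Ppp3r1 0. Nfatc1, Ppp3ca and Ppp3cc are named without one. A match of 5 letters is common, and it describes the window without showing that a factor binds there.

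The libraries held 22444310 to 32001285 estimated counts, which set the counting error of every value. All 6 CD8 T cell markers were present, with summed levels of 6533 to 6865 CPM (counts-per-million) in NFAT5 KO and 6179 to 7001 CPM in WT libraries. The 10 macrophage markers summed to 21.9 to 71.2 CPM in NFAT5 KO and 56.6 to 142 CPM in WT libraries, with none of the 10 at 0 in every NFAT5 KO library. Their mean log2 CPM was -0.18 ± 1.45 in NFAT5 KO and 2.12 ± 0.65 in WT libraries (SD, n = 5 each), and the results with this mean as a covariate are given at the end. The 5 dendritic cell markers summed to 118 to 191.5 CPM in NFAT5 KO and 49.05 to 145 CPM in WT libraries. Nearly all of this was Itgax (105 to 182.5 CPM in NFAT5 KO and 45.3 to 135 CPM in WT libraries), which activated T cells also express, and Xcr1, while Siglech was at 0 in all 10. The 2 NK cell markers summed to 0.137 to 5.38 CPM in NFAT5 KO and 1.146 to 5.34 CPM in WT libraries, with Ncr1 at 0 in all 10, and the 4 neutrophil markers to at most 0.583 CPM in NFAT5 KO and 2.10 CPM in WT libraries. The part of these cells in the results was not tested. WT 679_4 stood apart, with 1.52% of its counts in genes of at least 5000 bases of effective length, against 2.68% to 3.05% in the other 9 libraries. It had the lowest Nfat5, Nfatc2, Nfatc3 and Ppp3cb of all 10, and their log2 fold changes are given with and without it. The titles start with 678 (3 NFAT5 KO, 2 WT) or 679 (2 NFAT5 KO, 3 WT), a prefix that the labels do not explain. No label says that libraries came from separate mice, so the p-values cover only the variation seen here, which may be partly technical.

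None of the 9 genes passed the test of genotype. Over all genes 1179 of 13081 (9.01%) passed an adjusted p of 0.05 in the edgeR quasi-likelihood test, 3.38% higher and 5.63% lower in NFAT5 KO cells, while 0 of the 9 did. With the DESeq2 Wald test 14.5% of all genes and 0 of the 9 passed. For limma-voom, run with quality weights here and below, the values were 11.8% and 0 of the 9. At an unadjusted p below 0.05 the 9 genes included 2, Nfatc3 and Rcan1, against 23.2% of all genes. The CPM ranges of the genotypes overlapped for all 9, whereas they did not overlap for 10.3% of all genes tested. Leaving out WT 678_2 lowered the count over all genes to 696, and left it at 0 for the 9. In RNA from sorted populations, fewer cells with a transcript and less of it per cell cannot be told apart.

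**Figure D1:**
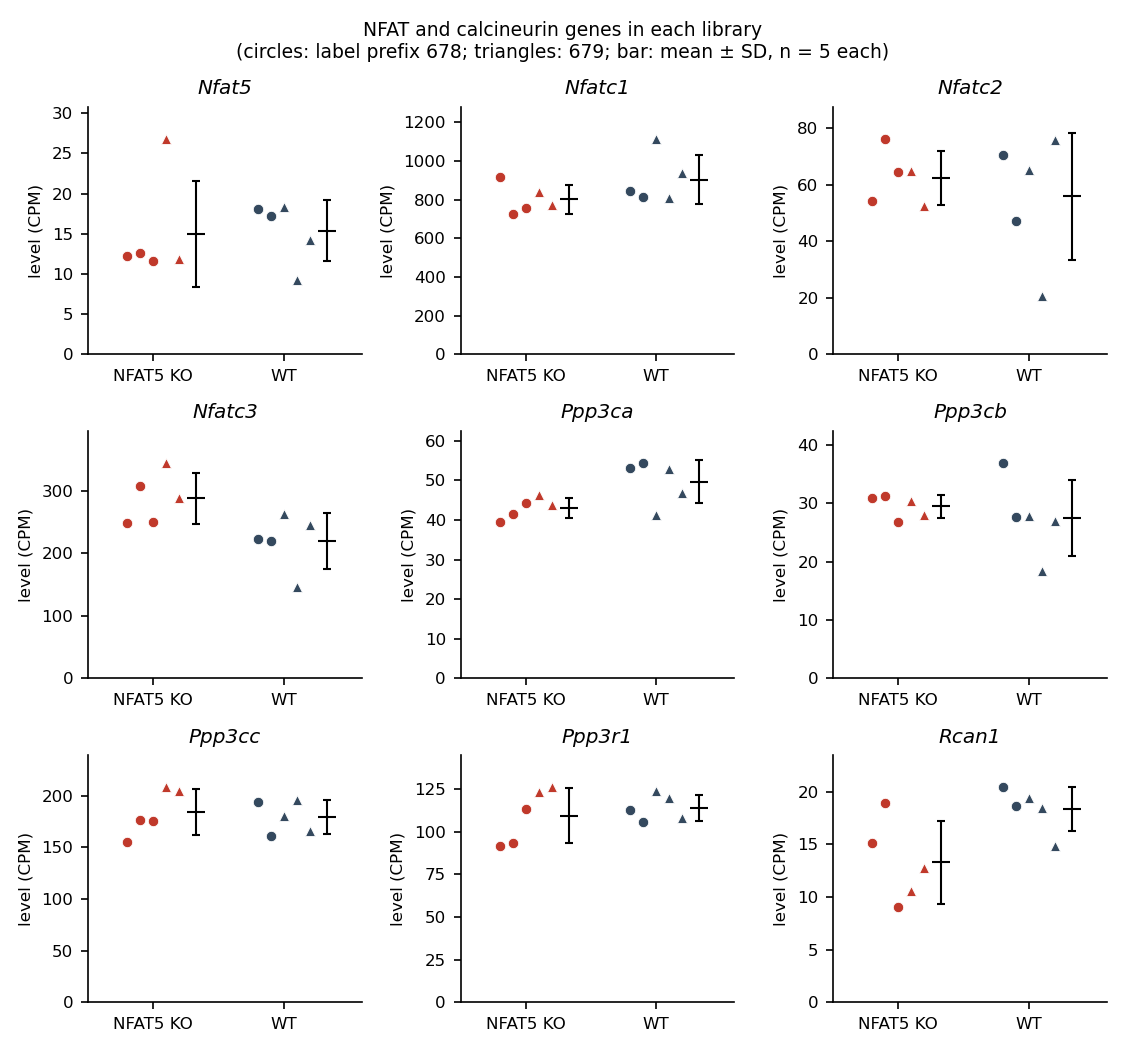
Level of each of the 9 genes in each library in CPM, from 0, with NFAT5 KO on the left and WT on the right of each panel. Circles are libraries of label prefix 678, triangles those of 679, and bars give the mean ± SD of 5 libraries; the genotypes overlap in every panel, and NFAT5 KO 679_2 (26.7 CPM of Nfat5) and WT 679_4 (20.7 CPM of Nfatc2) lie away from the rest.

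Nfat5, the gene that Cre acts on, lies on the plus strand of chromosome 8 at 107293470-107379517 (GRCm38, ENSMUSG00000003847). Among NFAT5 KO cells its level was 12.2 CPM in library 678_3, 12.6 CPM in 678_5, 11.6 CPM in 678_6, 26.7 CPM in 679_2 and 11.9 CPM in 679_6. Among WT cells its level was 18.0 CPM in library 678_2, 17.2 CPM in 678_4, 18.3 CPM in 679_3, 9.20 CPM in 679_4 and 14.2 CPM in 679_5, and later lists of values keep these orders. Of the NFAT5 KO libraries 4 sat below 4 of the WT libraries, NFAT5 KO 679_2 sat above every library and WT 679_4 below every library. The means were 15.0 ± 6.58 CPM in NFAT5 KO and 15.4 ± 3.81 CPM in WT cells (SD, n = 5 each), a log2 fold change of -0.04 (SE 0.27, 95% interval -0.63 to 0.56, adjusted p = 0.957). Without NFAT5 KO 679_2 the log2 fold change was -0.37 (adjusted p = 0.382), without WT 679_4 it was -0.19 (adjusted p = 0.754), and without both it was -0.50 (adjusted p = 0.142), this last choice made after the values were seen. Summed counts do not separate the floxed exons from the rest of the gene, so this level is no check of the genotype labels. The 258 to 781 estimated counts of Nfat5 per library made it the least abundant of the 9 genes per length.

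Libraries of the 2 label prefixes gave Nfat5 values of opposite sign, neither of which passed. The log2 fold change was -0.54 in libraries of prefix 678 (SE 0.25, adjusted p = 0.509) and 0.47 in those of prefix 679 (SE 0.42, adjusted p = 0.665), which hold both libraries that lay apart. The interaction of genotype with prefix was 1.01 for Nfat5 (SE 0.51, adjusted p = 1.0), and 0 of 13081 genes passed for this term with edgeR, with 2.88% at an unadjusted p below 0.05. The genes whose pattern over the 10 libraries was most like that of Nfat5 were Ltn1, a ubiquitin ligase of stalled ribosomes, Etv6, an ETS family repressor, and Slmap, a membrane protein. Their centred log2 CPM differed from that of Nfat5 by root mean squares of 0.207, 0.21 and 0.211, searched over 9639 protein-coding genes, against a spread of 0.419 for Nfat5 around its own mean. All 3, like Nfat5, were highest in NFAT5 KO 679_2, with Ltn1 at 101 CPM there, 60.5 to 72.9 CPM in the other NFAT5 KO libraries and 44.2 to 85.3 CPM in WT libraries. They were picked for their likeness to Nfat5 over these same libraries, so the shared peak is no separate result.

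The files list 14 transcripts of Nfat5, and the longest protein-coding one, Nfat5-214 with 15 exons, serves here to number the exons. Most of the RNA was assigned to other forms. Nfat5-212 and Nfat5-210 are annotated as retained introns and stop in the intron after exon 3, while the other 12 transcripts reach beyond exon 3. The forms that stop early were at 2.145, 2.01, 0.843, 3.44 and 0.708 TPM (transcripts-per-million, which corrects for length) in the NFAT5 KO libraries. In the WT libraries they were at 1.23, 1.255, 2.135, 0.734 and 0.728 TPM. The forms that reach beyond exon 3 were at 0.711, 0.743, 1.44, 2.64 and 3.35 TPM in NFAT5 KO libraries and at 2.17, 2.81, 2.65, 0.940 and 2.375 TPM in WT libraries. In 3 NFAT5 KO libraries, all of prefix 678, the TPM of these forms was below that of at least 4 WT libraries. In NFAT5 KO 679_2 and 679_6 it was above that of 3 and 5 WT libraries. Much of it in 679_6 came from short forms, Nfat5-207 (432 bases, 1.28 TPM) and Nfat5-204 (732 bases, 0.472 TPM). These had only 8.97 and 7.74 estimated counts there. All forms beyond exon 3 together had 273.8 estimated counts in NFAT5 KO 679_6 and 196 to 420 in WT libraries, not scaled for depth.

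Early-stopping forms made up 51.8 ± 24.6% of Nfat5 TPM in NFAT5 KO cells (range 17.4% to 75.1%) and 35.8 ± 8.93% in WT cells (range 23.5% to 44.6%; SD, n = 5 each). The NFAT5 KO range covered the whole WT range. Nfat5-212, the main one, had a share of 37.0 ± 11.4% in NFAT5 KO and 18.6 ± 9.42% in WT cells, a difference of 18.4 points (two-sided exact permutation p = 0.0238, adjusted p = 0.159 over 20 shares). Its level was 1.33 ± 0.768 TPM in NFAT5 KO and 0.690 ± 0.567 TPM in WT cells, a log2 fold change of 0.90 in counts (SE 0.53, adjusted p = 0.583). Of the Nfat5 transcripts 5 passed the count filter and 0 changed, also 0 at an unadjusted p below 0.05, while 629 of 38339 transcripts (1.64%) passed over all genes. These p-values leave out the uncertainty of assigning reads to transcripts, since the files carry no resampled estimates. Nfat5-214 itself was listed near 0 in most libraries, with means of 0.00738 TPM in NFAT5 KO and 0.0578 TPM in WT cells.

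**Figure D2:**
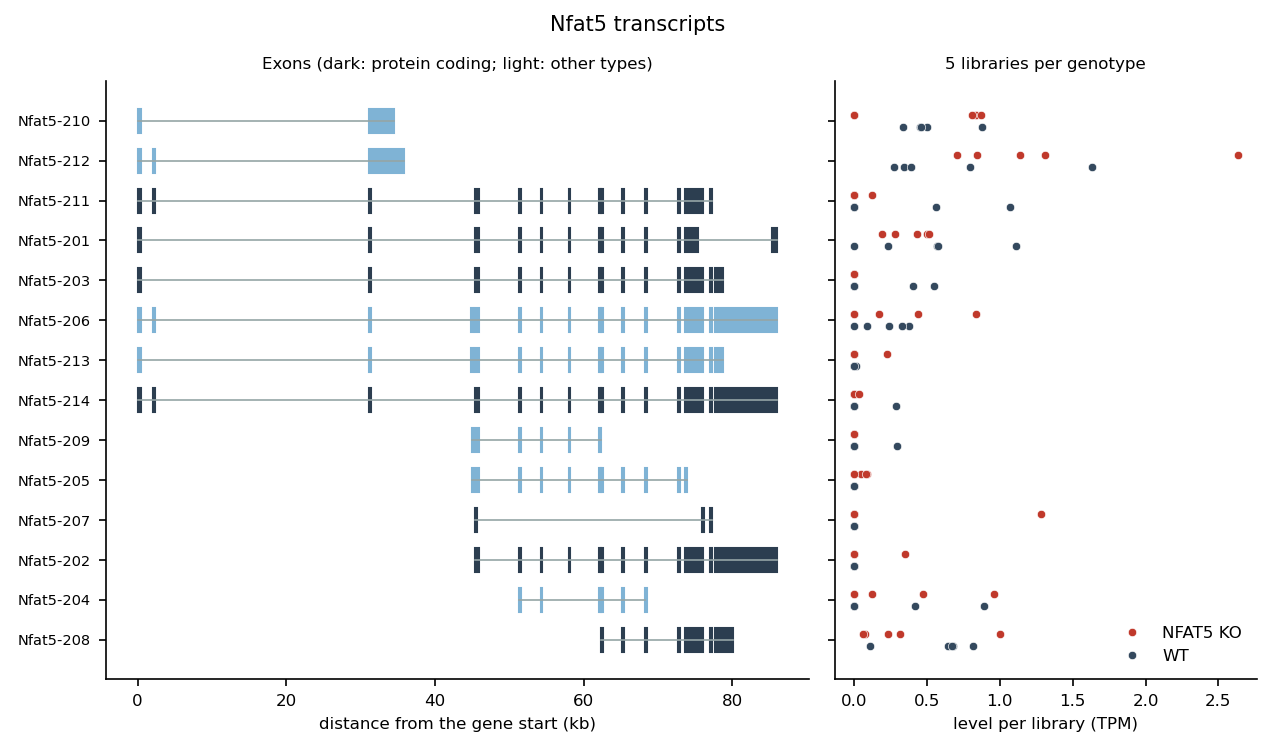
Exon maps of the 14 annotated Nfat5 transcripts by distance from the gene start in kb (left) and the TPM of each in the 5 NFAT5 KO and 5 WT libraries (right). The 2 transcripts at the top stop after exon 3; Nfat5-212 reaches 2.63 TPM in NFAT5 KO 679_2, and every transcript overlaps between the genotypes.

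Among the calcineurin-dependent factors, Nfatc3 had the lowest p-value and did not pass. It is a factor of thymocytes and T cells, and its gene lies on chromosome 8 at 106058840-106130537 (plus strand, ENSMUSG00000031902). Nfatc3 was at 248, 307, 250, 344 and 289 CPM in the NFAT5 KO libraries and at 224, 220, 263, 145.5 and 245 CPM in the WT libraries. All but the highest WT library, 679_3, were below all 5 NFAT5 KO libraries. The means were 288 ± 40.4 CPM in NFAT5 KO and 219 ± 44.7 CPM in WT cells, a log2 fold change of 0.39 (SE 0.15, 95% interval 0.07 to 0.71, adjusted p = 0.123). Without WT 679_4 the log2 fold change was 0.27 (adjusted p = 0.170), and without that library and NFAT5 KO 679_2 it was 0.20 (adjusted p = 0.316). Its sign was positive in all 22 alternative settings, from 0.20 to 0.54, and none of them passed.

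Nfatc1, which peripheral T cells induce strongly on activation, was the most abundant of the 9 genes. It was at 917, 725, 758, 837 and 773 CPM in NFAT5 KO libraries and at 844, 812, 1112, 811 and 936 CPM in WT libraries. The groups overlapped widely, and the log2 fold change was -0.17 (SE 0.10, 95% interval -0.39 to 0.05, adjusted p = 0.342). Nfatc2, the factor present before activation in resting T cells, was at 54.3, 76.0, 64.5, 64.9 and 52.4 CPM in NFAT5 KO libraries and at 70.3, 47.0, 65.2, 20.7 and 75.8 CPM in WT libraries. WT 679_4 was the only library below 47.0 CPM, and the log2 fold change of 0.16 (SE 0.27, adjusted p = 0.778) was -0.06 without it (adjusted p = 0.880). Nfatc2 RNA was assigned to the downstream start for 100.0% of its TPM in each NFAT5 KO library and for 98.4% to 100.0% in WT libraries. Transcripts of the upstream start were listed at 0 in 5 of 5 NFAT5 KO and 4 of 5 WT libraries, and at 0.152 TPM in WT 678_4.

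The 4 NFAT genes together were mostly Nfatc1 in both genotypes. Nfatc1 held 73.1 ± 3.31% of their summed TPM in NFAT5 KO cells (range 68.9% to 77.39%) and 79.8 ± 2.61% in WT cells (range 77.78% to 84.2%). Nfatc3 held 21.4 ± 2.74% in NFAT5 KO cells (range 18.3% to 24.9%) and 15.6 ± 1.56% in WT cells (range 13.1% to 16.9%). Neither pair of ranges overlapped, although the gap for Nfatc1 was narrow. Both are shares of the same sum, so they are tied to each other and are not separate results. By its own level neither gene passed (edgeR adjusted p = 0.342 for Nfatc1 and 0.123 for Nfatc3). How often such shares separate for other genes was not counted. Nfatc2 held 4.30 ± 0.868% in NFAT5 KO and 3.52 ± 1.02% in WT cells, and Nfat5 1.20 ± 0.428% in NFAT5 KO and 1.10 ± 0.288% in WT cells, with overlapping ranges. These shares were looked at after the gene levels were known, so they are given with no test.

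The forms of Nfatc1 are of interest because the upstream promoter, which is known to be induced by calcineurin and NFAT, and an early poly(A) site together give the short isoform that effector T cells make. Nfatc1-206, an 8-exon transcript with the upstream start and the early 3′ end, made up most of Nfatc1 RNA. It was at 164, 159, 134, 142 and 138 TPM in NFAT5 KO libraries and at 180.5, 156, 251.6, 170 and 199 TPM in WT libraries. Only the lowest WT library, 678_4, fell within the NFAT5 KO range. Its share of Nfatc1 TPM was 68.1 ± 5.82% in NFAT5 KO cells (range 59.4% to 74.7%) and 78.5 ± 4.66% in WT cells (range 70.3% to 81.9%), a difference of -10.45 points (two-sided exact permutation p = 0.0238, adjusted p = 0.159 over 20 shares). In the test of all transcripts its log2 fold change was -0.41 (SE 0.12, adjusted p = 0.147). The share difference stayed between -12.5 and -8.29 points when single libraries were left out, and the adjusted p between 0.159 and 0.423.

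Grouped by start site, Nfatc1 transcripts of the downstream start held 13.1%, 13.4%, 15.3%, 15.35% and 12.2% of its TPM in the NFAT5 KO libraries. In the WT libraries they held 9.52%, 11.7%, 8.98%, 7.11% and 8.65%. All 5 NFAT5 KO values lay above all 5 WT values, with means of 13.9 ± 1.39% in NFAT5 KO and 9.20 ± 1.67% in WT cells. The lowest value was that of WT 679_4, and the WT values without it also lay below all NFAT5 KO values. How often such groups separate for other genes was not counted. In level this was 30.2 ± 4.39 TPM in NFAT5 KO and 22.4 ± 5.18 TPM in WT cells, with overlapping ranges. Transcripts with the late 3′ end held 30.9 ± 4.85% in NFAT5 KO and 20.6 ± 5.25% in WT cells (range 24.7% to 37.7% against 15.3% to 29.4%). The lowest of these values was again that of WT 679_4. The upstream start supplied 85.05 ± 2.51% of Nfatc1 TPM in NFAT5 KO and 90.3 ± 1.52% in WT cells, and Nfatc1-207, a non-coding form placed in neither group, the rest. The groups were made from the annotation with transcript values already known, so these differences were not tested.

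**Figure D3:**
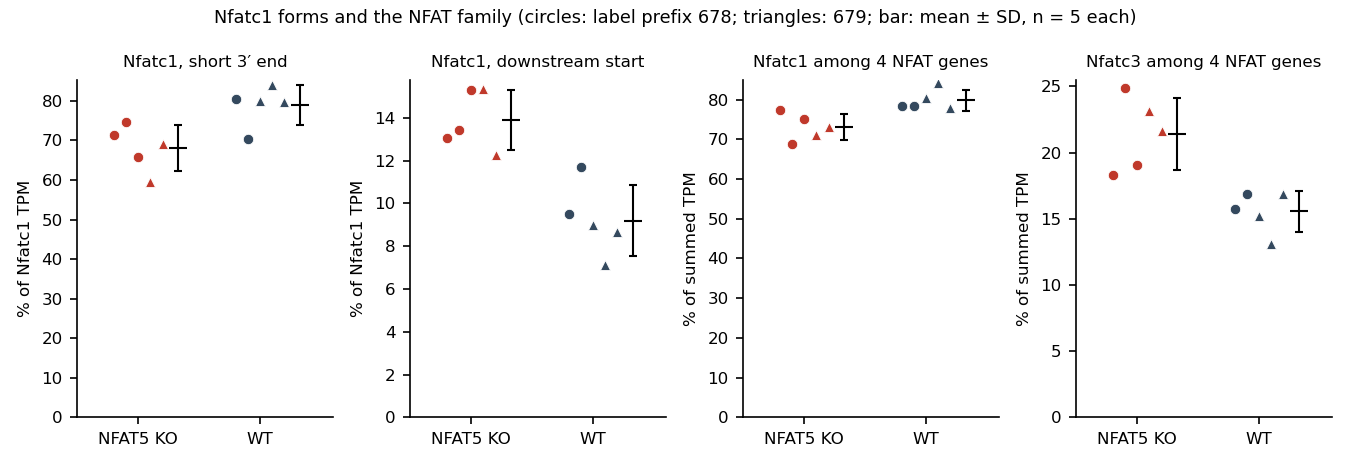
Share of Nfatc1 TPM from transcripts with the early (short) 3′ end and from the downstream start, and shares of Nfatc1 and Nfatc3 in the summed TPM of the 4 NFAT genes, for NFAT5 KO (left) and WT (right) libraries in percent, with mean ± SD (n = 5 each). The downstream start holds 12.2% to 15.35% in NFAT5 KO and 7.11% to 11.7% in WT libraries, and the ranges of the Nfatc1 and Nfatc3 shares do not overlap either.

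None of the calcineurin subunit genes passed, and their means lay close together. Ppp3cc, the catalytic subunit best known from testis, was the main one in these T cells, at 184 ± 22.2 CPM in NFAT5 KO and 179 ± 16.1 CPM in WT cells, a log2 fold change of 0.04 (SE 0.10, 95% interval -0.18 to 0.25, adjusted p = 0.867). Per length it made up 71.6 ± 2.93% of catalytic subunit TPM in NFAT5 KO and 70.05 ± 3.75% in WT cells. Ppp3ca, the α catalytic subunit, followed with 19.6 ± 1.62% in NFAT5 KO and 21.7 ± 3.61% in WT cells, and Ppp3cb, the β subunit that is needed for normal T cell development in mice, held 8.77 ± 1.49% in NFAT5 KO and 8.21 ± 1.43% in WT cells. The 95% intervals of the fold change ran from 0.885 to 1.19 for Ppp3cc, from 0.736 to 1.02 for Ppp3ca, from 0.835 to 1.37 for Ppp3cb and from 0.817 to 1.13 for Ppp3r1.

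Ppp3ca had the lowest p-value of the subunits. It was at 39.4, 41.5, 44.2, 46.2 and 43.7 CPM in NFAT5 KO libraries and at 53.1, 54.3, 41.3, 52.8 and 46.8 CPM in WT libraries, with WT 679_3 inside the NFAT5 KO range. The log2 fold change was -0.21 (SE 0.11, 95% interval -0.44 to 0.03, adjusted p = 0.279), and it was negative in all 22 alternative settings. Ppp3cb was at 30.9, 31.1, 26.8, 30.4 and 28.0 CPM in NFAT5 KO libraries and at 36.8, 27.6, 27.8, 18.3 and 26.9 CPM in WT libraries. Its log2 fold change of 0.10 (SE 0.17, adjusted p = 0.776) was -0.03 without WT 679_4 (adjusted p = 0.944). Ppp3r1, the only regulatory subunit gene tested, was at 110 ± 16.2 CPM in NFAT5 KO and 114 ± 7.70 CPM in WT cells, a log2 fold change of -0.06 (SE 0.11, 95% interval -0.29 to 0.17, adjusted p = 0.798). Summed catalytic TPM was 3.05 ± 0.276 times that of Ppp3r1 in NFAT5 KO and 2.97 ± 0.226 times in WT cells, a ratio of RNA and not of protein.

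Among transcript forms of the subunits, the largest share difference was that of Ppp3cb-201, a 13-exon protein-coding form. Its share of Ppp3cb TPM was 24.1 ± 5.25% in NFAT5 KO and 15.3 ± 3.27% in WT cells, a difference of 8.76 points that did not pass (exact permutation p = 0.0238, adjusted p = 0.159 over 20 shares). The main forms Ppp3cb-205, Ppp3ca-201 and Ppp3r1-201 had share differences of -0.61, -0.94 and -0.40 points. The share of Ppp3cc-202, a form annotated as non-coding, was 24.0 ± 3.91% in NFAT5 KO and 19.4 ± 3.25% in WT cells (exact permutation p = 0.0714, adjusted p = 0.357). Over all 9 genes 33 transcripts were tested and 0 changed, with 4 at an unadjusted p below 0.05 against 12.3% of all transcripts. These 4 were Nfatc1-206, Nfatc1-203 with a fitted log2 difference of 0.81 (SE 0.35, adjusted p = 0.369), Ppp3cb-201 with 0.67 (SE 0.27, adjusted p = 0.330) and Nfatc3-203, a retained intron, with 0.95 (SE 0.36, adjusted p = 0.285).

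Rcan1, the calcineurin inhibitor, lies on the minus strand of chromosome 16 at 92391953-92470867 (ENSMUSG00000022951). It was at 15.2, 18.9, 9.05, 10.55 and 12.8 CPM in the NFAT5 KO libraries and at 20.4, 18.7, 19.4, 18.4 and 14.9 CPM in the WT libraries. NFAT5 KO 678_3 and 678_5 lay within the WT range, and the other 3 NFAT5 KO libraries lay below it. The means were 13.3 ± 3.90 CPM in NFAT5 KO and 18.4 ± 2.09 CPM in WT cells, a log2 fold change of -0.47 (SE 0.20, 95% interval -0.91 to -0.02, adjusted p = 0.191). The sign was negative in all 22 alternative settings, from -0.64 to -0.38, and the lowest adjusted p among them was 0.0545, with limma-voom.

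The RNA of Rcan1 was assigned almost wholly to its upstream starts, where the first printed window lies. Transcripts of the upstream starts made up 97.1 ± 3.26% of Rcan1 TPM in NFAT5 KO and 99.1 ± 1.98% in WT cells. Those of the downstream start, the one whose window holds 3 matches to GGAAA, were listed at 0 in all 5 NFAT5 KO and in 4 WT libraries, and at 0.403 TPM in WT 679_4. Salmon shares reads between forms by a model, so a value of 0 is an estimate and gives no limit on the true level. Rcan1-202 and Rcan1-206 start 3 bases apart, and the share of Rcan1-206 ran from 0% to 95.8% of Rcan1 TPM in NFAT5 KO and from 0% to 95.3% in WT libraries, so their split is not read here.

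Per length, the order of the 9 genes was almost the same in both genotypes. Nfatc1 led with 217 ± 17.0 TPM in NFAT5 KO and 243 ± 42.6 TPM in WT cells, followed by Ppp3cc with 96.4 ± 12.6 TPM in NFAT5 KO and 94.8 ± 6.59 TPM in WT cells. Next came Nfatc3 with 64.0 ± 12.3 TPM in NFAT5 KO and 47.7 ± 10.3 TPM in WT cells, and Ppp3r1 with 44.1 ± 4.37 TPM in NFAT5 KO and 45.7 ± 3.15 TPM in WT cells. In NFAT5 KO libraries the ranges of these neighbours did not overlap, while in WT libraries those of Nfatc3 and Ppp3r1 did, with Nfatc3 above Ppp3r1 in 4 of 5. Ppp3ca was at 26.3 ± 2.83 TPM in NFAT5 KO and 29.3 ± 4.34 TPM in WT cells. Nfatc2 with 12.8 ± 2.67 TPM in NFAT5 KO and 10.9 ± 3.72 TPM in WT cells and Ppp3cb with 11.7 ± 1.64 TPM in NFAT5 KO and 11.1 ± 2.05 TPM in WT cells changed places, and their ranges overlapped in both genotypes. Rcan1 was at 7.26 ± 2.41 TPM in NFAT5 KO and 9.61 ± 1.20 TPM in WT cells, and Nfat5 was last with 3.61 ± 1.53 TPM in NFAT5 KO and 3.40 ± 1.16 TPM in WT cells. Rcan1 overlapped with Nfatc2 and Ppp3cb in both genotypes, and with Nfat5 in NFAT5 KO but not in WT libraries.

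**Figure D4:**
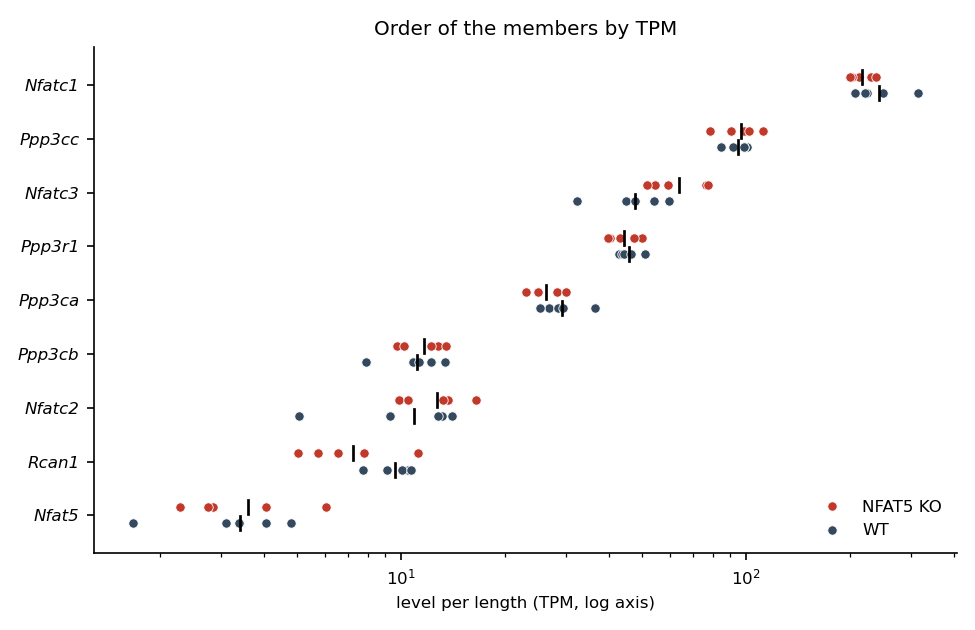
Level of each gene in TPM on a log axis in every library, NFAT5 KO above WT, with a line at the mean of each genotype (n = 5 each). The order runs from Nfatc1 (200.3 to 239 TPM in NFAT5 KO and 207 to 315 TPM in WT libraries) down to Nfat5 (2.28 to 6.08 TPM in NFAT5 KO and 1.67 to 4.79 TPM in WT libraries).

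Other genes of the pathway were taken from 6 lists, of which 14 of 66 tested genes (21.2%) passed. Over all genes 9.01% passed, 3.38% higher and 5.63% lower. The lists were made with earlier results known, so this count and the counts and medians of each list are descriptions. Of 11 genes of store-operated calcium entry 10 were tested, and 1 rose: Orai1, the pore of the calcium channel, was at 229 ± 13.4 CPM in NFAT5 KO and 164.5 ± 31.8 CPM in WT cells, or 0.48 ± 0.12 on the log2 scale (SE; adjusted p = 0.0271). The median of the 10 was 0.33, against 0.02 over all genes, with 9 of 10 above 0, against 6779 of 13081 over all genes. The calcium sensor gene Stim1 (0.44, adjusted p = 0.0753), the receptor gene Itpr2 of calcium release (0.56, adjusted p = 0.0886) and Orai2 (0.37, adjusted p = 0.0907) did not pass. Of 12 calmodulin genes and calcineurin partners 9 were tested, and 1 fell: Ppia, which encodes cyclophilin A, the protein through which ciclosporin blocks calcineurin, was at 1814 ± 92.9 CPM in NFAT5 KO and 2286 ± 287 CPM in WT cells (log2 fold change -0.33, SE 0.09, adjusted p = 0.0317). The median of these 9 was -0.18, with Calm3 at -0.39 (adjusted p = 0.0624) and the Rcan1 relative Rcan3 at -0.91 (adjusted p = 0.0977). Orai1 did not pass without WT 678_2, WT 679_3, NFAT5 KO 678_3, 678_5, 678_6 or 679_6 (adjusted p = 0.0556 to 0.0778), nor Ppia without WT 678_2, WT 679_4, NFAT5 KO 678_6 or 679_2 (0.0613 to 0.0951) or with the label prefix as a block (0.0501).

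Of 13 kinases and anchors that hold NFAT in the cytosol 10 were tested, and 1 rose. Dyrk2, a kinase that phosphorylates NFAT and so opposes calcineurin, was at 39.9 ± 6.90 CPM in NFAT5 KO and 24.4 ± 1.12 CPM in WT cells, or 0.71 ± 0.13 on the log2 scale (SE; adjusted p = 0.00523), and it passed without any single library. The ranges of the genotypes did not overlap. All 10 log2 fold changes of the list were above 0, against 6779 of 13081 over all genes. Their median was 0.30, against 0.02 over all genes. Dyrk1a, at 0.56, just missed the threshold (adjusted p = 0.0518). The 6 tested of 8 nuclear partners had a median of 0.46 and none passed. The 2 with the lowest p-values were Irf2bp2, a repressor that binds NFATc2, at 0.74 (adjusted p = 0.0540), and Mef2d, a factor that works with NFAT, at 0.37 (adjusted p = 0.0624). Irf2bp2 passed without WT 678_4, NFAT5 KO 678_3 or 678_5 (adjusted p = 0.0228 to 0.0430), and Mef2d without WT 678_4 (0.0420). Both also passed with a filter of 5 CPM in 5 libraries (0.0374 for Irf2bp2 and 0.0475 for Mef2d). The same held for the DESeq2 Wald test (0.0117 and 0.0248) and limma-voom (0.0186 and 0.0479). With edgeR Irf2bp2 was at 1.21 in prefix 679 alone (adjusted p = 0.0273) and at 0.285 in prefix 678 alone (0.836). Neither gene passed in the remaining alternatives.

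Of 12 genes known to signal to NFAT5, all tested, 2 rose. Map2k3, a kinase that activates p38, was at 369 ± 35.7 CPM in NFAT5 KO and 244 ± 57.1 CPM in WT cells (log2 fold change 0.60, SE 0.14, adjusted p = 0.0175). Ccm2, a scaffold of the p38 pathway in osmotic stress, was at 110 ± 15.7 CPM in NFAT5 KO and 81.9 ± 8.44 CPM in WT cells (0.43, SE 0.11, adjusted p = 0.0344). Both are part of a list with a median of 0.16, and p38 itself, Mapk14, was at 0.14 (adjusted p = 0.514). Map2k3 did not pass without WT 678_2 (adjusted p = 0.0569) or WT 679_3 (0.0544). Ccm2 did not pass without WT 678_2, 678_4, 679_3 or 679_5 or NFAT5 KO 678_5, 678_6 or 679_2 (0.0505 to 0.104). It did not pass either with scaling by library size (0.0605), no filter on low counts (0.0558), an offset for transcript length (0.102) or the label prefix as a block (0.061).

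Known target genes of calcium and NFAT in T cells moved in both directions. Of 20 listed genes 19 were tested, with 7 higher and 2 lower in NFAT5 KO cells, against 3.38% higher and 5.63% lower over all genes. The median was 0.24, and 11 of 19 were above 0, against 6779 of 13081 over all genes. The CD40 ligand gene Cd40lg was at 18.7 ± 3.71 CPM in NFAT5 KO and 4.80 ± 2.26 CPM in WT cells (log2 fold change 1.96, SE 0.30, adjusted p = 0.00175). Gata3 was higher by 0.48 (SE 0.11, adjusted p = 0.0130) and Fasl, the death ligand, by 0.52 (SE 0.12, adjusted p = 0.0169). The early response factors Egr2, Egr3 and Nr4a1 rose by 0.90, 1.28 and 0.82 on the log2 scale (adjusted p = 0.0220, 0.0361 and 0.0201), and the costimulatory receptor gene Tnfrsf9 by 0.68 (adjusted p = 0.0266). The 2 that fell were Tox, which the exhausted state needs, with -1.82 (SE 0.24, adjusted p = 0.000682), and Pdcd1, the PD-1 gene, with -0.91 (SE 0.19, adjusted p = 0.0107). Classic cytokine targets did not pass: Ifng had 0.03 (adjusted p = 0.891), Tnf 0.24 (adjusted p = 0.315) and Il2, at 0.776 ± 0.565 CPM in NFAT5 KO and 1.62 ± 0.638 CPM in WT cells, -1.06 (adjusted p = 0.369).

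Of these 9 targets Cd40lg, Gata3, Tox and Pdcd1 passed without any single library. Fasl did not pass without NFAT5 KO 678_6, 679_2 or 679_6 or WT 679_3 or 679_5 (adjusted p = 0.0517 to 0.0563), nor Nr4a1 without WT 678_2, WT 679_3 or NFAT5 KO 679_2 (0.0531 to 0.0599). Egr2 did not pass without WT 678_2, WT 679_3, NFAT5 KO 678_6 or 679_2 (0.0534 to 0.0582). Tnfrsf9 did not pass without WT 678_2, 679_3 or 679_5 or NFAT5 KO 678_5, 678_6 or 679_6 (0.0543 to 0.0772), and Egr3 not without WT 678_2, WT 679_3 or any 1 of the NFAT5 KO libraries (0.0546 to 0.0937). With an offset for transcript length neither Tnfrsf9 (0.0522) nor Egr3 (0.0536) passed, nor did Egr3 with no filter on low counts (0.0577). With the macrophage marker mean as a covariate, which overlaps with genotype, 0 of the 14 called pathway genes passed, and 21 genes did over the whole table. All 14 kept their sign in that fit, and its errors were larger: the log2 fold change was 0.68 for Dyrk2 (SE 0.205, against 0.71 without the covariate), 0.47 for Orai1 (SE 0.182, against 0.48), -1.23 for Pdcd1 (SE 0.28, against -0.91) and 0.14 for Ccm2 (SE 0.143, against 0.43). The lists come from general knowledge of the pathway, and 10 listed genes fell outside the test, Nfatc4, Ppp3r2, Rcan2 and Il21 among them.

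**Figure D5:**
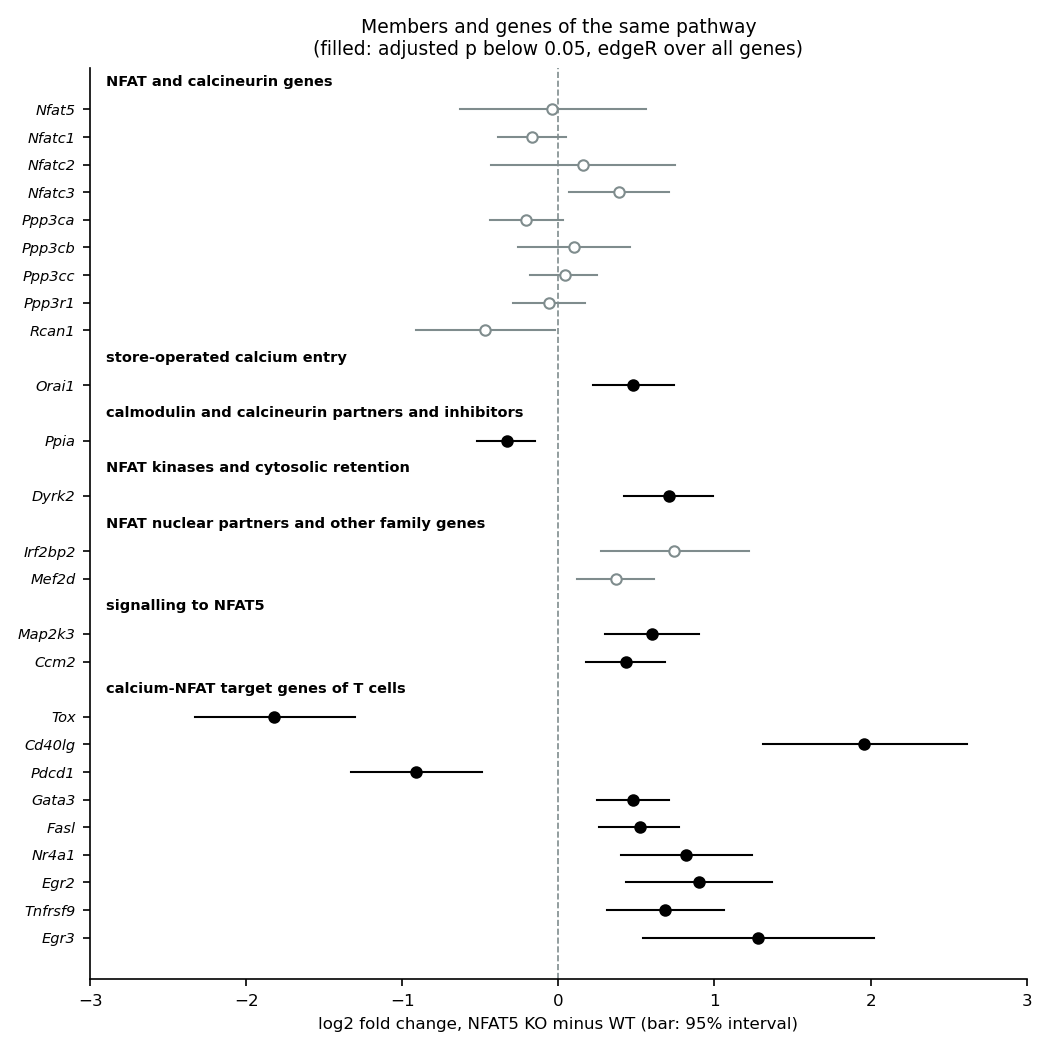
Log2 fold change of NFAT5 KO minus WT with its 95% interval for the 9 genes and for the named genes of 6 pathway lists; filled points passed an adjusted p of 0.05 over all genes. The intervals of 7 of the 9 family genes cross 0 and no point of the 9 is filled, while Cd40lg (1.96) and Tox (-1.82) lie farthest to each side.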

How the data were processed

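RNA of 5 NFAT5 KO and 5 WT samples was measured, grouped by the genotype in the labels. For every library the authors deposited 1 Salmon table with an estimated count and a TPM value of 140919 transcripts, as the file headers name them. The deposited estimated counts were not normalized and need not be whole, and the deposited TPM values are scaled for effective length and library total. Salmon had version 0.14.1 and the genome builds were GRCm38.p6 and mm10, per the submitters' processing notes. How strand was set and how reads were treated before quantification is not given in the sources used here.

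Transcripts were matched by identifier to GENCODE M21 (99.38% matched, with 0.191% to 0.228% of counts unmatched), and the estimated counts of a gene's transcripts were added up and rounded. Genes were filtered with filterByExpr, scaled with TMM and tested by robust quasi-likelihood in edgeR 4.0.16 under R 4.3.3, NFAT5 KO against WT over 10 libraries with no covariate, with Benjamini-Hochberg adjustment over 13081 genes at 0.05. The same fit was run on 38339 transcripts. CPM uses TMM library sizes. SE is the log2 fold change over the square root of the F statistic. Shares of TPM of transcripts with a mean share of at least 10% were compared by a two-sided exact permutation test over 252 arrangements, for which the smallest p is 0.00794. The biological coefficient of variation was 35.7%. No libraries agreed within sampling noise.

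Named were all 9 genes, every pathway gene past the threshold or the 2 with the lowest p in a list with none, the 3 genes most like Nfat5 and transcripts with a mean share of at least 10%; any other transcript was picked with its values in view. The 9 genes and all lists were chosen with earlier results of these data known. Alternatives were scaling by DESeq2 1.42.0 size factors or by library size, no filter, a filter of 5 CPM in 5 libraries, a length offset, the label prefix as a block, each prefix alone, a macrophage covariate, the DESeq2 Wald test, limma-voom (limma 3.58.1) and leaving out libraries. A listed gene is not reported here; list counts and medians still include it.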

Additional observations from a re-analysis of the deposited data

Results flagged for a closer look

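In a few groups of 5 libraries the highest or lowest library lay far from the others. Nfat5 was at 26.7 CPM in NFAT5 KO 679_2, against 11.6 to 12.6 CPM in the other NFAT5 KO libraries. In the same library Dyrk2, the NFAT kinase gene that rose in NFAT5 KO cells, was at 52.1 CPM, against 35.7 to 38.3 CPM in the other 4. The early response gene Egr2 was at 87.3 CPM in NFAT5 KO 679_6, against 132 to 138 CPM in the others. Map2k3 was at 432 CPM in NFAT5 KO 678_5, against 346 to 357 CPM in the others. This concerns 4 of 50 groups checked (8%), and chance alone gives about 1 in 20. Without NFAT5 KO 679_2 the log2 fold change of Nfat5 was -0.37 (adjusted p = 0.382). None of these groups was set apart by a label, and no cause was tested.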

How the results depend on the processing

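The count of called family genes was 0 under all 22 alternatives, and the counts of called Nfat5 transcripts and transcript shares were 0 under those run for them. The sign of Nfatc3 and Ppp3ca and of Rcan1 held throughout. Nfat5 turned to 0.068 with the length offset and to 0.468 in prefix 679 alone, and ranged from -0.368 to 0.025 when single libraries were left out. Nfatc1 was 0.000 with the macrophage covariate. Nfatc2 was -0.037 with that covariate, -0.070 without NFAT5 KO 679_2 and WT 679_4, and -0.059 to 0.28 without single libraries. Ppp3cb was -0.126 in prefix 678 alone, -0.036 without those 2 libraries and -0.028 to 0.217 without single ones. Ppp3cc was -0.005 with library size alone, -0.004 with the length offset, -0.072 in prefix 678 alone and -0.029 to 0.07 without single libraries. Ppp3r1 was 0.080 in prefix 679 alone and 0.009 with the covariate. None of these values passed. Transcripts moved more: Nfat5-201 ranged from -0.733 to 0.095, Nfat5-206 from -0.562 to 0.725 and Nfat5-210 from -0.561 to 0.056 without single libraries.

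All genes called numbered 1179, against 0 in prefix 678 alone, 325 in prefix 679 alone, 21 with the macrophage covariate, 1893 with the DESeq2 Wald test, 689 without NFAT5 KO 679_2 and WT 679_4, and 696 to 1276 without single libraries. Pathway genes called numbered 14, against 0, 6, 0, 30 and 7 under those settings, 22 with limma-voom and 7 to 20 without single libraries. Prefix 678 alone had 1449 of 13747 tested genes (10.5%) at an unadjusted p below 0.05 with edgeR, against 23.2% in all libraries. The fits by prefix also held fewer libraries, and the causes were not tested. No paired analysis was possible because the replicate numbers were given in accession order and pair no libraries. Depth limits transcripts of Nfat5 and Rcan1, which had few counts.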
